A study of Homo sapiens with 8 samples.

Results

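FDX1 and the protein lipoylation pathway are described here through 10 genes, FDX1, LIAS, LIPT1, LIPT2, DLAT, DLST, DBT, GCSH, DLD and PDHX, which were taken by symbol from the 15597 genes listed in every library. All 10 were found, and each lay at or above 1 FPKM (reads scaled to gene length and library total) in all 8 libraries, so each was tested. RNA came from SUDHL-4, an established line of germinal-centre diffuse large B-cell lymphoma. The groups were FDX1-overexpressing cells (FDX1-OE) with elesclomol (ES), FDX1-OE cells with the vehicle DMSO, control cells of wild-type genotype with ES, and control cells with DMSO. ES was given at 5 nM, every group was treated for 48 h, and each had 2 libraries. The labels give no vector, promoter or clone for the FDX1-OE cells and do not say what the control cells carry, nor whether the libraries of a group came from separate cultures.

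Lipoate is a sulfur-containing cofactor that mitochondria build directly on the proteins that use it. LIPT2 moves an octanoyl group from the mitochondrial acyl carrier protein to GCSH, LIAS inserts the sulfur atoms, and LIPT1 passes the finished lipoyl group on to the subunits of the 2-oxoacid dehydrogenases. FDX1, a small iron-sulfur ferredoxin, hands on electrons and is needed for lipoylation in human cells. ES is a copper ionophore, and in the form of cell death called cuproptosis copper binds lipoylated proteins such as DLAT, with loss of FDX1 or LIAS giving resistance.

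The library totals, recovered from the FPKM values as whole reads, lay between 33435438 and 35883528 reads, and the reads of the 10 genes between 83 for LIPT1 and 9408 for FDX1. All 8 listed B-cell markers were above 1 FPKM in every library, among them CD79A at 650.53 to 909.89 FPKM. Their summed level was 1787 to 1793 FPKM in FDX1-OE cells in ES, 1442 to 1455 in FDX1-OE cells in DMSO, 1738 to 1784 in control cells in ES and 1534 to 1549 in control cells in DMSO, so it moved with ES. Of the 4 myeloid markers and the 4 epithelial and stromal markers none reached 1 FPKM, with sums of 0.124 to 0.644 and of 0.00471 to 0.505 FPKM, both higher in the ES than in the DMSO libraries of each genotype. Of the T and NK cell markers CD3E lay at 3.91 to 8.32 FPKM, CD3D at 0.00 to 0.03 and NKG7 at 0.00 to 0.23, with a sum of 7.58 to 8.47 FPKM in FDX1-OE cells in ES, 5.23 to 7.17 in FDX1-OE cells in DMSO, 7.09 to 7.41 in control cells in ES and 4.10 to 5.03 in control cells in DMSO. The part of these markers in the results was not tested. In bulk RNA fewer cells of a type and less RNA per cell cannot be told apart.

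FDX1 was measured at 82.51 and 84.84 FPKM in FDX1-OE cells in ES and at 72.41 and 69.87 FPKM in FDX1-OE cells in DMSO. In control cells it lay at 21.32 and 21.35 FPKM in ES and at 25.58 and 22.20 FPKM in DMSO. The FDX1-OE and control libraries did not overlap, with 7345 to 9408 reads in the 4 FDX1-OE libraries and 2246 to 2794 in the 4 control libraries. The log2 change of FDX1-OE against control cells, on the scale of FPKM + 1 used for every change here, was 1.92 in ES (95% interval 1.78 to 2.07) and 1.54 in DMSO (1.39 to 1.68), and 1.73 averaged over both treatments (SE 0.05, limma adjusted p = 1.45e-08), or 3.32 times the control level. FDX1 is the overexpressed gene, so its call was set by the design, and none of the other members was called in the averaged comparison. That comparison called 9.98% of all tested genes, 7.14% higher and 2.85% lower. With RLE (median-of-ratios) scaling its split of 700 higher and 279 lower genes became 575 and 544. The whole gene length of 3144 bases underlies these FPKM. The labels do not say which part of FDX1 was overexpressed, and reads of the added and the endogenous gene were not told apart.

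Raised FDX1 changed its place in the pathway. In control cells FDX1 was the fifth most abundant of the 10 transcripts per length in ES (mean 21.34 FPKM) and in DMSO (23.89 FPKM), below GCSH and above PDHX. In FDX1-OE cells it ranked above all the others, at 83.67 FPKM in ES and 71.14 FPKM in DMSO, and stood higher than 95.1% and 93.9% of all listed genes, against 79.4% in control cells in ES and 81.7% in control cells in DMSO. The second mitochondrial ferredoxin, FDX2, which serves iron-sulfur cluster assembly, had 22.50 and 22.72 FPKM in FDX1-OE cells in ES, 23.29 and 24.53 FPKM in FDX1-OE cells in DMSO, 23.24 and 25.22 FPKM in control cells in ES and 27.74 and 22.28 FPKM in control cells in DMSO. FDX1 over FDX2, per length, was therefore 3.67 and 3.73 in FDX1-OE cells in ES and 3.11 and 2.85 in FDX1-OE cells in DMSO, against 0.917 and 0.847 in control cells in ES and 0.922 and 0.996 in control cells in DMSO. Over FDXR, the reductase that feeds both ferredoxins, FDX1 stood at 10.2 and 10.1 in FDX1-OE cells in ES and at 9.58 and 9.40 in DMSO, against 2.54 and 2.74 in control cells in ES and 3.05 and 2.55 in DMSO.

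**Figure D1:**
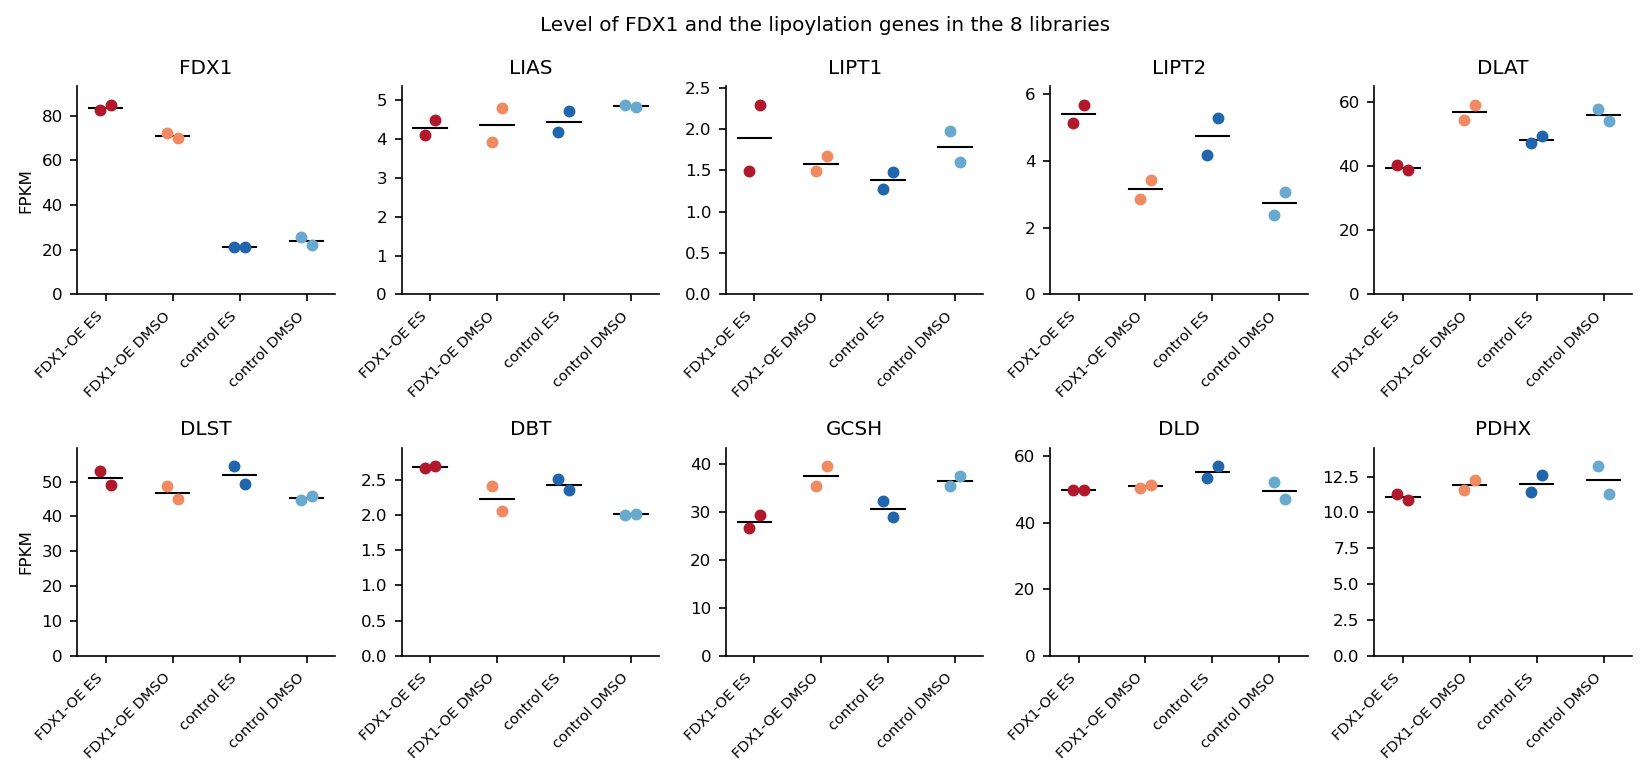
Level in FPKM of each of the 10 genes, 1 panel a gene, in the 4 groups along the horizontal axis. Points are the 2 libraries of a group and bars their mean. FDX1 parts FDX1-OE from control libraries, at 69.87 FPKM or more against 25.58 FPKM or less, and DLAT is lowest in FDX1-OE cells in ES, at 40.30 and 38.66 FPKM.

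In DMSO, FDX1 was called between FDX1-OE and control cells and none of the other 9 genes was, where 0.510% of 9805 tested genes were called, 0.428% higher and 0.0816% lower. Their log2 changes lay between -0.13 for LIAS and 0.15 for LIPT2, and DLAT, the lipoylated core subunit of pyruvate dehydrogenase, was at 0.02 (95% interval -0.12 to 0.15). For DLST and DLD the interval was -0.10 to 0.19 and -0.09 to 0.17. The widest intervals were those of LIPT1, from -0.40 to 0.18, and LIPT2, from -0.11 to 0.42, which rest on 101 to 132 and 197 to 273 reads a library in DMSO.

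In ES, FDX1 and DLAT were called between FDX1-OE and control cells, against 21.4% of all tested genes, 13.6% higher and 7.78% lower (1331 and 763 genes, and 978 and 1273 with RLE scaling). DLAT lay at 40.30 and 38.66 FPKM in FDX1-OE cells and at 47.12 and 49.27 FPKM in control cells, so the libraries did not overlap. Its log2 change was -0.28 (SE 0.06, adjusted p = 0.00979), that is 0.823 times the control level. It no longer passed when replicate 2 of control ES (adjusted p = 0.0751) or of FDX1-OE ES (0.0553) was left out. Averaged over both treatments DLAT did not pass (log2 change -0.13, adjusted p = 0.0794), though RLE scaling called it lower (-0.16, adjusted p = 0.0405), as did voom on the recovered reads (-0.14, adjusted p = 0.0437). DLD, the dehydrogenase that reoxidises the reduced lipoyl group, was at -0.14 (adjusted p = 0.116), and was called lower with RLE scaling (-0.20, adjusted p = 0.0409). LIPT1 was at 0.27 (adjusted p = 0.17) and was called higher without FDX1-OE ES replicate 1 (0.47, adjusted p = 0.0474), the library with 100 reads of it, where FDX1-OE ES replicate 2 had 156.

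With ES, DLAT and GCSH fell and LIPT2 rose in both genotypes. DLAT was measured in FDX1-OE cells at 40.30 and 38.66 FPKM in ES and at 54.31 and 59.01 FPKM in DMSO, and in control cells at 47.12 and 49.27 FPKM in ES and at 57.83 and 54.13 FPKM in DMSO. All 4 ES libraries lay below all 4 DMSO libraries. How many of all tested genes part their libraries in this way was not counted, so such separations are a description throughout. Its log2 change was -0.51 in FDX1-OE cells (95% interval -0.64 to -0.37, adjusted p = 5.98e-05), or 0.702 times the DMSO level, and -0.21 in control cells (-0.35 to -0.08, adjusted p = 0.0194), or 0.864 times. The call in FDX1-OE cells held in all 6 other settings and in all 8 fits that leave out a library, with adjusted p between 8.16e-07 and 0.00173. The call in control cells depended on replicate 1: leaving it out of the DMSO group gave an adjusted p of 0.128 and out of the ES group 0.102.

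GCSH, the lipoylated carrier of the glycine cleavage system on which lipoate is first built, lay in FDX1-OE cells at 26.51 and 29.25 FPKM in ES and at 35.33 and 39.41 FPKM in DMSO. Control cells had 32.16 and 28.98 FPKM in ES and 35.43 and 37.52 FPKM in DMSO. Again no ES library reached a DMSO library. The log2 change was -0.41 in FDX1-OE cells (SE 0.08, adjusted p = 0.00106) and -0.25 in control cells (adjusted p = 0.0255). For control cells it did not pass when unfiltered genes were tested (adjusted p = 0.0906), nor when control DMSO replicate 1 (0.0537), control DMSO replicate 2 (0.138) or control ES replicate 2 (0.16) was left out. GENCODE 29 (GRCh38) names 5 pseudogenes after GCSH and places 2 overlapping genes on its strand. How the counting divided such reads is not stated, so the level of GCSH is uncertain. The same limit holds for FDX1, with 2 named pseudogenes, and for DLST and LIPT1, with 1 each. On the opposite strand DLAT shares 212 exonic bases with PIH1D2, PDHX 259 with APIP, DLD 70 with LAMB1 and DBT 40 with an antisense gene.

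LIPT2, the octanoyltransferase of the first step, was measured in FDX1-OE cells at 5.15 and 5.68 FPKM in ES and at 2.85 and 3.44 FPKM in DMSO, and in control cells at 4.19 and 5.28 FPKM in ES and at 2.39 and 3.08 FPKM in DMSO. Every ES library was higher than every DMSO library, on 333 to 475 reads in ES and 197 to 273 reads in DMSO. The log2 change was 0.63 in FDX1-OE cells (SE 0.12, adjusted p = 0.0012) and 0.62 in control cells (SE 0.12, adjusted p = 0.00273), about 1.55 and 1.54 times on FPKM + 1. These calls held in the 5 other settings in which LIPT2 was tested and in all 8 fits without a library, with adjusted p of at most 0.0188 in FDX1-OE cells and 0.035 in control cells. The difference between the genotypes was 0.01 (95% interval -0.36 to 0.39). In GENCODE 29 the exons of LIPT2 share 368 bases with a noncoding RNA on the opposite strand, and the sources used here do not say whether the counting used strand.

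Counted over the pathway, 4 of the 10 genes were called with ES in FDX1-OE cells, FDX1 and LIPT2 higher and DLAT and GCSH lower, where 56.2% of all tested genes were called, 37.0% higher and 19.2% lower (3632 and 1878 genes, and 2380 and 3105 with RLE scaling). In control cells 4 were called, LIPT2 and DLST higher and DLAT and GCSH lower, against 38.4% of all tested genes, 25.5% higher and 12.9% lower (2498 and 1269 genes, and 1694 and 2125 with RLE scaling). These shares are near the background. The median log2 change of the 10 genes was 0.05 in FDX1-OE cells and -0.06 in control cells, beside 0.09 and 0.06 over all tested genes. With RLE scaling the median over all genes moved to -0.03 in FDX1-OE cells and -0.01 in control cells, and there DLAT changed by -0.65 and -0.30, GCSH by -0.55 and -0.34 and LIPT2 by 0.52 and 0.55 on the log2 scale, all still called.

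**Figure D2:**
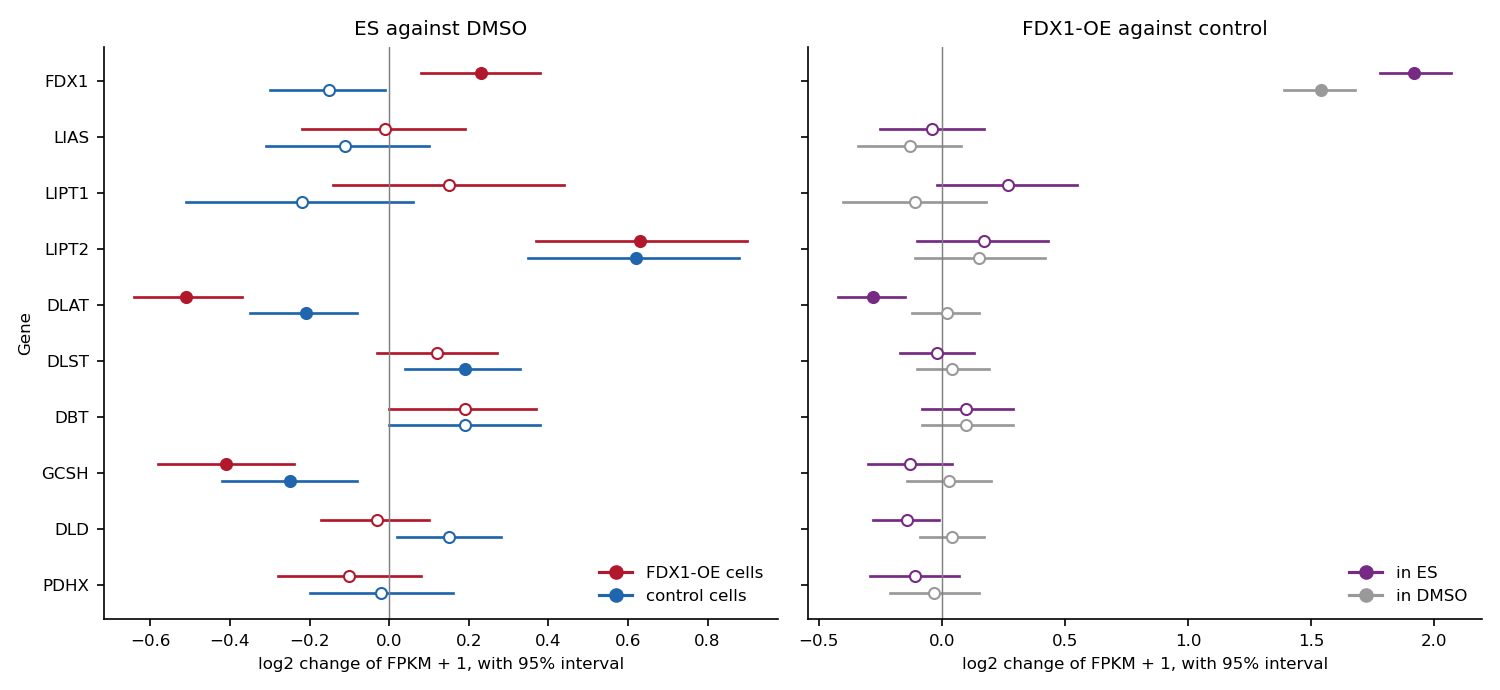
Log2 change of FPKM + 1 with its 95% interval for each of the 10 genes, for ES against DMSO (left; FDX1-OE cells above control cells) and for FDX1-OE against control cells (right; ES above DMSO). Filled points passed an adjusted p of 0.05 over all tested genes. DLAT, GCSH and LIPT2 are filled in both genotypes on the left, and FDX1 and, in ES, DLAT on the right.

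The other acyltransferase subunits did not follow DLAT. DLST, the lipoylated core of the 2-oxoglutarate dehydrogenase complex, lay in FDX1-OE cells at 53.07 and 49.05 FPKM in ES and at 48.75 and 44.89 FPKM in DMSO. Control cells had 54.32 and 49.27 FPKM in ES and 44.77 and 45.90 FPKM in DMSO. Its ES libraries were all higher than its DMSO libraries, by a narrow margin between the lowest ES and the highest DMSO library. The log2 change was 0.12 in FDX1-OE cells (adjusted p = 0.141) and 0.19 in control cells (adjusted p = 0.0479), a call absent under RLE scaling (0.10, adjusted p = 0.265), with no filter (adjusted p = 0.114) and in 5 of the 8 fits without a library, where the adjusted p reached 0.273. With RLE scaling the change in FDX1-OE cells was -0.02.

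DBT, the lipoylated core of the branched-chain complex, was low in every library, at 2.67 and 2.69 FPKM in FDX1-OE cells in ES and 2.41 and 2.06 FPKM in FDX1-OE cells in DMSO. Control cells had 2.51 and 2.35 FPKM in ES and 2.00 and 2.02 FPKM in DMSO. It did not pass in either genotype (log2 change 0.19 in each, adjusted p = 0.0772 in FDX1-OE cells and 0.0976 in control cells), while voom called it higher in both, with adjusted p = 0.0256 and 0.0364. Averaged over the genotypes DBT was called higher with ES (0.19, SE 0.06, adjusted p = 0.0169), as was DLST (0.15, SE 0.05, adjusted p = 0.0149), and neither call held with RLE scaling (adjusted p = 0.141 and 0.482).

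In that averaged comparison 5 of the 10 genes were called, LIPT2 (log2 change 0.63, adjusted p = 9.73e-05), DBT and DLST higher and DLAT (-0.36, adjusted p = 3.97e-05) and GCSH (-0.33, adjusted p = 0.000353) lower. Of all tested genes 62.9% were called, 41.2% higher and 21.7% lower (4042 and 2125 genes, and 2713 and 3383 with RLE scaling). The calls of LIPT2, DLAT and GCSH held in every other setting that tested them. Leaving out FDX1-OE DMSO replicate 2 or control ES replicate 1 left these 3 calls alone.

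PDHX, the lipoylated subunit that binds DLD into the pyruvate dehydrogenase complex, did not pass in any of the 7 comparisons. It lay at 11.28 and 10.85 FPKM in FDX1-OE cells in ES and at 11.60 and 12.29 FPKM in FDX1-OE cells in DMSO, against 11.42 and 12.61 FPKM in control cells in ES and 13.21 and 11.29 FPKM in control cells in DMSO. The log2 change with ES was -0.10 in FDX1-OE cells (95% interval -0.28 to 0.08) and -0.02 in control cells (-0.20 to 0.16). With RLE scaling it was called lower with ES in FDX1-OE cells (-0.23, adjusted p = 0.0307) and on average (-0.17, adjusted p = 0.0247).

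DLAT over PDHX, both per length, was 3.57 and 3.56 in FDX1-OE cells in ES and 4.68 and 4.80 in FDX1-OE cells in DMSO. In control cells the ratio was 4.12 and 3.91 in ES and 4.38 and 4.80 in DMSO. The ES libraries were all below the DMSO libraries, and among the ES libraries those of FDX1-OE cells were below those of control cells. DLAT over DLST was 0.759 and 0.788 in FDX1-OE cells in ES against 1.11 and 1.31 in DMSO, and 0.867 and 1.000 in control cells in ES against 1.29 and 1.18 in DMSO. DLAT was thus the more abundant of the pair in each DMSO library and not in any ES library. Of the summed FPKM of the 5 lipoylated proteins DLAT, DLST, DBT, PDHX and GCSH, DLAT made up 30.1% and 29.6% in FDX1-OE cells in ES, 35.6% and 37.4% in FDX1-OE cells in DMSO, 31.9% and 34.6% in control cells in ES and 37.7% and 35.9% in control cells in DMSO. These ratios are a description and were not tested.

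**Figure D3:**
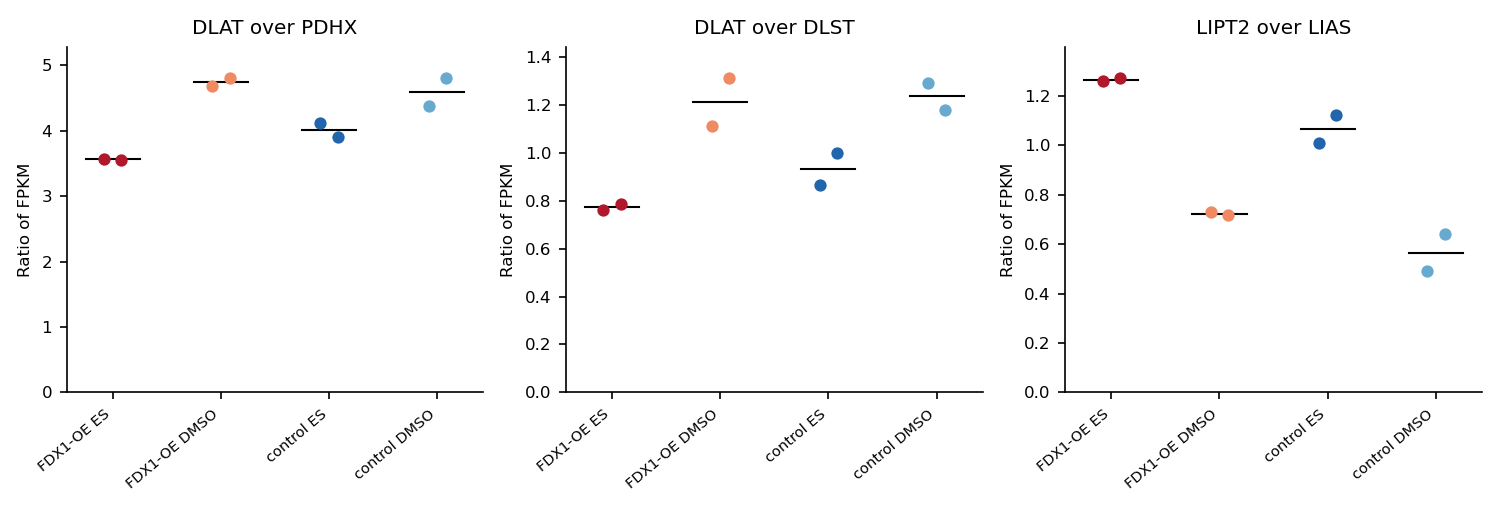
Ratio of FPKM between DLAT and PDHX, between DLAT and DLST and between LIPT2 and LIAS in the 4 groups. Points are the 2 libraries of a group and bars their mean. DLAT over PDHX is 3.57 and 3.56 in FDX1-OE cells in ES and between 3.91 and 4.80 in the other libraries.

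DLD, shared by the 2-oxoacid dehydrogenases and the glycine cleavage system, varied little, between 47.16 and 57.00 FPKM. It lay at 49.93 and 49.81 FPKM in FDX1-OE cells in ES, at 50.61 and 51.44 FPKM in FDX1-OE cells in DMSO, at 53.47 and 57.00 FPKM in control cells in ES and at 52.22 and 47.16 FPKM in control cells in DMSO. Its log2 change with ES was -0.03 in FDX1-OE cells (adjusted p = 0.668) and 0.15 in control cells (adjusted p = 0.071). In control cells voom (adjusted p = 0.0452) and the fit without control DMSO replicate 1 (0.0362) called it higher, and in FDX1-OE cells RLE scaling called it lower (-0.17, adjusted p = 0.0314).

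LIAS, the lipoyl synthase, did not pass in any of the 7 comparisons. It lay at 4.09 and 4.48 FPKM in FDX1-OE cells in ES, 3.91 and 4.79 FPKM in FDX1-OE cells in DMSO, 4.17 and 4.71 FPKM in control cells in ES and 4.87 and 4.81 FPKM in control cells in DMSO, on 521 to 653 reads. The log2 change with ES was -0.01 in FDX1-OE cells (95% interval -0.22 to 0.19) and -0.11 in control cells (-0.31 to 0.10), and that of FDX1-OE against control cells averaged over the treatments was -0.09 (-0.23 to 0.06). LIAS shares 363 exonic bases with RPL9, a ribosomal protein gene on the opposite strand, in GENCODE 29. LIPT2 over LIAS was 1.26 and 1.27 in FDX1-OE cells in ES and 0.728 and 0.718 in FDX1-OE cells in DMSO, against 1.01 and 1.12 in control cells in ES and 0.491 and 0.640 in control cells in DMSO. LIPT2 was the more abundant per length in each ES library and LIAS in each DMSO library.

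LIPT1, the lipoyltransferase, was the lowest of the 10 genes in every group, at 1.49 and 2.29 FPKM in FDX1-OE cells in ES, 1.49 and 1.67 FPKM in FDX1-OE cells in DMSO, 1.28 and 1.48 FPKM in control cells in ES and 1.97 and 1.60 FPKM in control cells in DMSO. Its 83 to 156 reads give it a wide error, and the log2 change with ES was 0.15 in FDX1-OE cells (95% interval -0.14 to 0.44) and -0.22 in control cells (-0.51 to 0.06). In FDX1-OE cells it was called higher without FDX1-OE ES replicate 1 (0.35, adjusted p = 0.0414) and was at -0.05 without replicate 2. Exons of LIPT1 overlap those of 3 other genes, MITD1 and TSGA10 on the opposite strand among them.

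Per length the pathway fell into a high and a low tier. DLST, DLD, DLAT and GCSH ranged from 26.51 to 59.01 FPKM and PDHX from 10.85 to 13.21 FPKM, while LIPT2, LIAS, DBT and LIPT1 stayed between 1.28 and 5.68 FPKM. In control cells in DMSO the order was DLAT (mean 55.98 FPKM), DLD (49.69), DLST (45.34), GCSH (36.47), FDX1 (23.89), PDHX (12.25), LIAS (4.84), LIPT2 (2.74), DBT (2.01) and LIPT1 (1.78), and no pair of neighbours in it had overlapping libraries. In FDX1-OE cells in DMSO no neighbours overlapped either. In ES the libraries of DLD and DLST overlapped in both genotypes and those of LIPT2 and LIAS in control cells.

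FDX1 was the single member called for a difference between the ES responses of the genotypes, where 4.30% of all tested genes were called, 3.25% higher and 1.05% lower (319 and 103 genes, and 251 and 274 with RLE scaling). With ES, FDX1 rose in FDX1-OE cells (log2 change 0.23, SE 0.07, adjusted p = 0.0124) and did not pass in control cells (-0.15, adjusted p = 0.0913). The response in FDX1-OE cells less the response in control cells was 0.38 (95% interval 0.18 to 0.59, adjusted p = 0.0469). This call sits at the threshold. It did not hold with a pseudocount of 0.1 (adjusted p = 0.0596), with no filter (0.12), with RLE scaling (0.0685) or in 7 of the 8 fits without a library, with adjusted p up to 0.149. The rise in FDX1-OE cells did not pass under RLE scaling (0.09, adjusted p = 0.278) or when replicate 2 of FDX1-OE DMSO (adjusted p = 0.0752) or of FDX1-OE ES (0.0638) was left out.

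For DLAT the difference between the responses was -0.30 (95% interval -0.49 to -0.11, adjusted p = 0.0747), so it did not pass, while RLE scaling (-0.35, adjusted p = 0.0435) and voom (-0.30, adjusted p = 0.0387) called it. For GCSH it was -0.16 (95% interval -0.40 to 0.08), for DLD -0.18 (-0.37 to 0.01) and for LIPT1 0.38 (-0.03 to 0.78). A larger fall of DLAT and GCSH in FDX1-OE cells than in control cells is therefore not shown for GCSH, and for DLAT it depends on the setting.

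The promoters of the members that ES moved in both genotypes, DLAT, GCSH and LIPT2, are printed to show what sequence lies at these starts. They are RefSeq sequences of build GRCh38.p14 from 250 bases before to 50 after the start, at chr11:112025158-112025457 on the plus strand for DLAT, chr16:81096346-81096645 on the minus strand for GCSH and chr11:74493675-74493974 on the minus strand for LIPT2. Capitals mark matches, on either strand, to the ETS motif CCGGAAG, the SP1 motif GGGCGG and the core of the metal response element bound by MTF1, TGCACNC or TGCGCNC.
DLAT: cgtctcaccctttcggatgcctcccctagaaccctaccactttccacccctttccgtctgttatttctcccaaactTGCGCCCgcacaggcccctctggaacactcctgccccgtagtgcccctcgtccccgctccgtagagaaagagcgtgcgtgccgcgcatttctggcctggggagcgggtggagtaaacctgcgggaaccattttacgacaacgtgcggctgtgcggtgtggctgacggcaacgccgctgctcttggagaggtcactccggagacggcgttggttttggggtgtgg
GCSH: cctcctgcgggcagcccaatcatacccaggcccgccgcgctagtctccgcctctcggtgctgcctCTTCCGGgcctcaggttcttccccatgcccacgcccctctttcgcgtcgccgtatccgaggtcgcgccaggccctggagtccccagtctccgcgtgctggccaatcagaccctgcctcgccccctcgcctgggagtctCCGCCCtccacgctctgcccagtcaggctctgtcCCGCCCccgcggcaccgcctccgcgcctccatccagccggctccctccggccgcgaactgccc
LIPT2: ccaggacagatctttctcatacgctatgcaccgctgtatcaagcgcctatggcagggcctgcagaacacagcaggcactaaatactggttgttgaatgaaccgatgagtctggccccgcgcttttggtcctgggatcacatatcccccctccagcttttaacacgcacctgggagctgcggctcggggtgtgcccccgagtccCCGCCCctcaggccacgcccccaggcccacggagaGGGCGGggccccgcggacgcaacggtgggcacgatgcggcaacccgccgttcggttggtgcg
The DLAT window held 1 match to the metal response core and the GCSH and LIPT2 windows none, while GCSH held 1 ETS and 2 SP1 matches and LIPT2 held 2 SP1 matches. All 10 genes had a promoter in the table. The metal response core was matched in 5 of the 10, LIPT1, DLAT, DLST, DLD and PDHX, and in 29.5% of 34943 promoters. The ETS motif was matched in 3 of the 10 and in 10.2% of all, and the SP1 motif in 7 of the 10 and in 44.9% of all. Matches to the interferon response element (TTTC and TTTC with 2 bases between), to the ATF4 element TGATGNAA and to the NRF1 core (GCGCA and GCGC with 1 base between) were found in none of the 10, against 3.57%, 3.62% and 5.74% of all promoters. A match is not a binding site, and no match says only that these letters are not in the window.

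Genes around the pathway were grouped by role, and the counts of each list stand beside the shares of all tested genes called with ES, 37.0% higher and 19.2% lower in FDX1-OE cells and 25.5% higher and 12.9% lower in control cells. Of 8 genes of lipoate precursor and cofactor supply, 3 were called higher and 3 lower with ES in FDX1-OE cells, and 2 higher and 2 lower in control cells. Of all tested genes 56.2% were called in FDX1-OE cells and 38.4% in control cells, and RLE scaling called 2 higher and 3 lower of the list in FDX1-OE cells and 0 higher and 3 lower in control cells. ACSF3, the malonyl-CoA synthetase that feeds mitochondrial fatty acid synthesis, rose to 6.13 and 5.73 FPKM in ES, against 4.06 and 3.81 FPKM in DMSO, in FDX1-OE cells (log2 change 0.49, adjusted p = 0.000281). In control cells it rose by 0.27 (adjusted p = 0.0144), though not under RLE scaling (adjusted p = 0.052) or when replicate 1 of either control group was left out (0.083 and 0.0768). OXSM, the condensing enzyme of that pathway, rose by 0.36 in FDX1-OE cells and 0.26 in control cells, the second of which did not pass with RLE scaling (adjusted p = 0.0925), no filter (0.0643), voom (0.0549) or in 3 of the 8 fits without a library (up to 0.19). HSD17B8, a subunit of its ketoreductase, fell, with log2 changes of -0.37 in FDX1-OE cells and -0.35 in control cells. MCAT, its malonyl transferase, fell in FDX1-OE cells (-0.30, adjusted p = 0.00895), a call that needed FDX1-OE DMSO replicate 2 (0.0561 without it) and FDX1-OE ES replicate 1 (0.0779). NDUFAB1, the acyl carrier protein that carries the octanoyl group, lay in control cells at 94.89 and 97.18 FPKM in ES and 123.80 and 120.20 FPKM in DMSO (-0.34, adjusted p = 0.000547). It was called lower in FDX1-OE cells too (-0.18, adjusted p = 0.0101). There it lay at 94.40 and 99.25 FPKM in ES and at 109.20 and 110.04 FPKM in DMSO.

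Of 8 iron-sulfur carriers and ferredoxin partners, 1 was called higher and 1 lower with ES in each genotype, beside the 56.2% of all tested genes called in FDX1-OE cells and 38.4% in control cells. With RLE scaling 0 of the list were higher in control cells. GLRX5, which passes iron-sulfur clusters on in mitochondria, fell in FDX1-OE cells (log2 change -0.34, adjusted p = 0.00363). Its fall in control cells (-0.25, adjusted p = 0.0284) did not hold when control DMSO replicate 1 (-0.14, 0.225) or control ES replicate 1 (-0.17, 0.187) was left out, or with no filter (0.113). IBA57, which acts in making the larger clusters that LIAS carries, lay in FDX1-OE cells at 2.89 and 2.73 FPKM in ES and at 1.78 and 1.36 FPKM in DMSO (0.57, adjusted p = 0.00085). In ES it was higher in FDX1-OE than in control cells (0.35, adjusted p = 0.0352), a call made in 2 of the 5 other settings that tested it and in 4 of the 8 fits without a library (adjusted p up to 0.224). BOLA3, a partner of NFU1 in delivering clusters, was the gene called higher in control cells (0.21, adjusted p = 0.0245), which held in 3 of the 6 other settings and in 5 of the 8 fits without a library, and was at 0.13 without control DMSO replicate 2 (adjusted p = 0.188).

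Of the 10 other subunits of the lipoate-using complexes 8 were tested, with 2 higher and 2 lower with ES in each genotype, beside 56.2% of all tested genes called in FDX1-OE cells and 38.4% in control cells. The higher genes of both counts include AMT, described after the others, and RLE scaling called 2 higher and 3 lower in FDX1-OE cells and 1 higher and 2 lower in control cells. MRPS36, a protein that tethers DLD to the 2-oxoglutarate dehydrogenase complex and was first named as a mitochondrial ribosomal protein, lay in FDX1-OE cells at 10.04 and 10.03 FPKM in ES and at 14.90 and 16.13 FPKM in DMSO, and in control cells at 11.82 and 11.21 FPKM in ES and at 18.81 and 16.06 FPKM in DMSO. It fell by 0.58 and 0.56 on the log2 scale (adjusted p = 0.000131 in FDX1-OE cells and 0.00051 in control cells). PDHA1, the catalytic E1 subunit upstream of DLAT, fell in FDX1-OE cells (-0.26, adjusted p = 0.00135) and was at -0.05 in control cells (adjusted p = 0.494). PDHB, its partner, fell in control cells (-0.27, adjusted p = 0.00951), a call lost without control DMSO replicate 1 (-0.21) or control ES replicate 2 (-0.25). In FDX1-OE cells PDHB was at -0.16 (adjusted p = 0.0664). Averaged over both genotypes PDHB was called lower (-0.22, and -0.33 with RLE scaling). No tested gene of this list was called for a difference between the responses of the genotypes. DHTKD1, the E1 enzyme of lysine breakdown that works with DLST, rose in both, by 0.46 (adjusted p = 0.000156) in FDX1-OE cells and 0.20 (adjusted p = 0.0293) in control cells, the second lost with RLE scaling (0.12, adjusted p = 0.171) and in each of the 4 fits that leave out a control library (up to 0.116).

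AMT, the aminomethyltransferase of the glycine cleavage system and so a partner of GCSH, had 100 and 126 reads in FDX1-OE cells in ES and 20 and 13 in FDX1-OE cells in DMSO. In control cells it had 50 and 71 reads in ES and 38 and 19 in DMSO. AMT reached 1 FPKM only in 3 ES libraries, at 1.44 and 1.79 FPKM in FDX1-OE cells and 1.05 FPKM in control cells, and so entered the tests through the libraries in which it is high. Its log2 changes of 1.07 in FDX1-OE cells and 0.43 in control cells are therefore a description. GLDC, the decarboxylase of the same system, had at most 7 reads in any library and was not tested.

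Of 10 regulators of these complexes 8 were tested, and 3 were called higher with ES in FDX1-OE cells and 2 in control cells, with none lower, beside 37.0% and 25.5% of all tested genes called higher. With RLE scaling 2 were higher and 1 lower in control cells. In FDX1-OE cells these were PPM1K, the phosphatase that activates the branched-chain complex (0.31), PDPR, a regulatory subunit of pyruvate dehydrogenase phosphatase (0.22), and PDK2, a kinase that inactivates pyruvate dehydrogenase (0.20). None of these 3 passed there with RLE scaling, which called 0 higher and 2 lower of the list in FDX1-OE cells. In control cells PDK2 was called higher too (0.28, adjusted p = 0.0113), also with RLE scaling (0.20, adjusted p = 0.0477). That call was lost without control DMSO replicate 1 (0.22) or control ES replicate 1 (0.27). Averaged over both genotypes PDK2 was called higher (0.24), also with RLE scaling (0.13, adjusted p = 0.0391). BCKDK, the kinase that inactivates the branched-chain complex, lay at 35.30 and 33.41 FPKM in FDX1-OE cells in ES and 35.51 and 35.15 FPKM in DMSO, against 40.47 and 39.70 FPKM in control cells in ES and 31.51 and 32.78 FPKM in DMSO. It rose with ES in control cells (0.31, adjusted p = 0.00155), and the responses of the genotypes differed by -0.35 (SE 0.08, adjusted p = 0.0347), a call absent with no filter (0.0543) and in all 8 fits without a library (0.053 to 0.106).

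Of 2 genes tied to cuproptosis outside lipoylation, 1 was called higher with ES in FDX1-OE cells and none in control cells, where 37.0% and 25.5% of all tested genes were called higher. CDKN2A, a cell cycle inhibitor, rose with ES in FDX1-OE cells (0.33, adjusted p = 0.0027). Of 6 mitochondrial P450 enzymes, which take electrons from FDX1 in steroid and vitamin D metabolism, 1 was tested, CYP27B1, the vitamin D activating hydroxylase, with levels of 3.65 to 4.98 FPKM and no call.

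**Figure D4:**
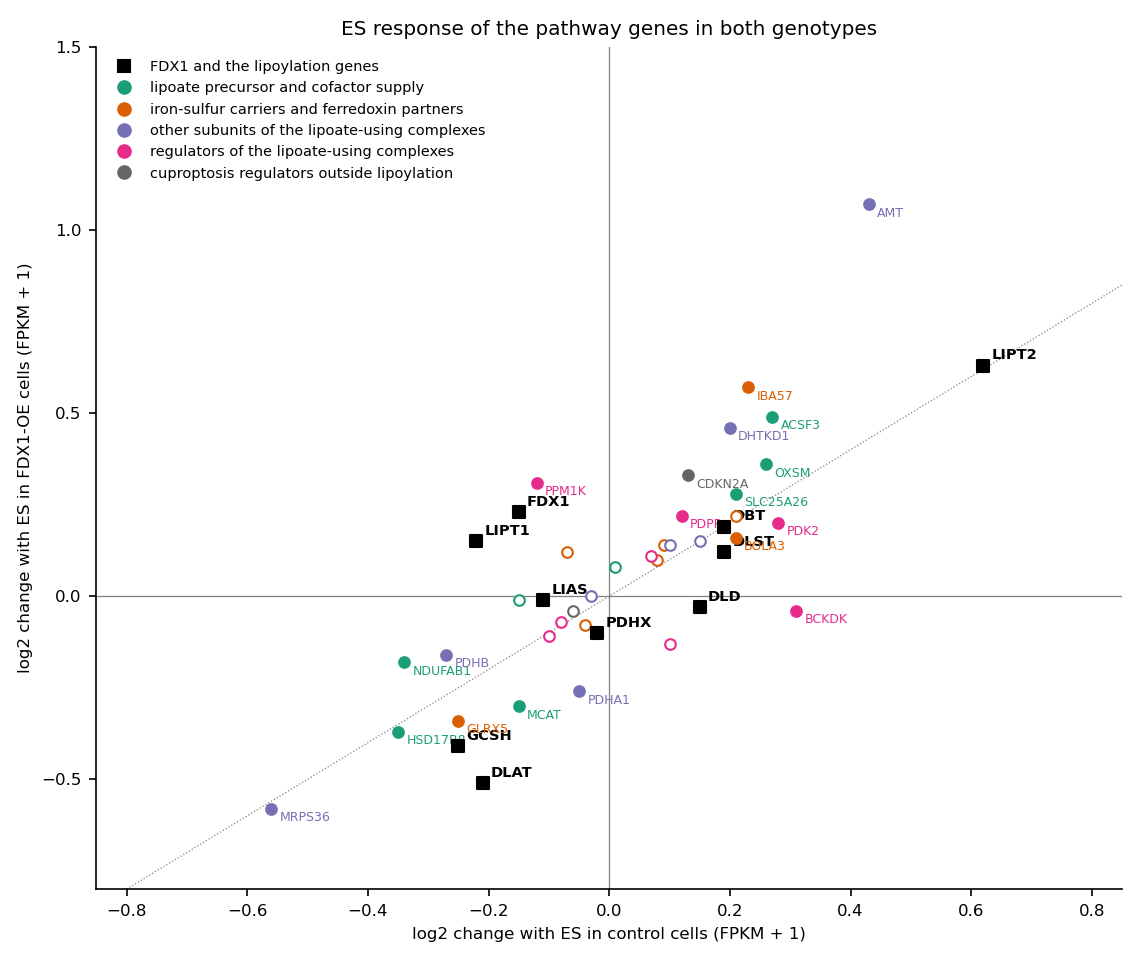
Log2 change with ES in FDX1-OE cells (vertical) and in control cells (horizontal) for the 10 genes (black squares) and the tested genes of 5 lists around the pathway (circles, filled and named where called in at least 1 genotype). The dotted line marks equal changes. LIPT2 lies on the line at 0.63 in FDX1-OE cells and 0.62 in control cells, and DLAT below it at -0.51 in FDX1-OE cells and -0.21 in control cells.

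Between FDX1-OE and control cells in DMSO none of the tested genes of the 6 lists was called, where 0.510% of all tested genes were. In ES, where 21.4% of all were called, those called were DHTKD1 (0.29), IBA57 and PPM1K (0.25) higher and PDHA1 (-0.18) and BCKDK (-0.22) lower in FDX1-OE cells, with adjusted p between 0.00952 for DHTKD1 and 0.0413 for PPM1K, besides AMT (0.46), which is given as a description. By list, 0 of 8 genes of precursor supply and 1 of 8 iron-sulfur carriers were called. Of 8 other subunits 2 were higher, AMT among them, and 1 lower. Of 8 regulators 1 was higher and 1 lower, and no P450 or cuproptosis gene was called. Of all tested genes 13.6% were higher and 7.78% lower. The call of DHTKD1 was lost without FDX1-OE ES replicate 1 (adjusted p = 0.081). That of PDHA1 held in 4 of the 8 fits without a library (adjusted p up to 0.145) and that of BCKDK in 5 (up to 0.101). PPM1K was called in 3 of these fits, was at 0.17 without control ES replicate 2 (adjusted p = 0.26), and did not pass with RLE scaling (0.0793) or no filter (0.0914).

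Likeness to FDX1 was measured as the root mean square difference between centred log2 profiles over the 8 libraries. The 5 nearest of the tested genes were VAT1L (0.33), SPRR2D (0.42), LRRN3 (0.46), PALLD (0.49) and PDZRN3 (0.54), against a median of 0.88 over all tested genes. VAT1L averaged 4.63 FPKM in FDX1-OE cells in ES and 4.52 in DMSO, against 1.49 in control cells in ES and 1.72 in DMSO. LRRN3 averaged 19.5 FPKM in FDX1-OE cells in ES and 12.6 in DMSO, against 8.11 in control cells in ES and 7.88 in DMSO. SPRR2D averaged 3.93 FPKM in FDX1-OE cells in ES and 1.54 in DMSO, against 0.607 in control cells in ES and 0.748 in DMSO. It entered the tested genes only through the FDX1-OE libraries, in which it is high, so its place here is a description. The same 5 genes came out with RLE scaling and 4 of them with a pseudocount of 0.1. The other 9 genes of the pathway had differences from FDX1 between 0.83 for DBT and LIPT1 and 0.97 for DLAT, around the median of all genes. The profiles were centred but not scaled, so a flat gene lies at a distance set by the FDX1 profile alone. A value near the median therefore does not tell whether a profile has the shape of that of FDX1. The 5 nearest genes were picked by these values, so their higher levels in FDX1-OE cells are a description.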

How the data were processed

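RNA-seq of 8 SUDHL-4 libraries was used. The deposited values are FPKM made by the authors, 1 library a file. The headers give no unit, so it was read from the values. The submitters' processing notes list HISAT2, HTSeq, R 3.2.0 and the build hg19; what each did, the annotation and any filter are not given in the sources used.

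Library totals were recovered first, from the steps between the values of low genes. For each gene the smallest whole length that gave whole reads in every library was then taken. FPKM scaled back by this length and the library total gave whole reads for 100% of the 15597 genes (tolerance 0.02). These reads served for depth and 1 alternative. A count of 0 allows up to 3 reads, or 0.0836 to 0.0897 FPKM at 1 kilobase, for counting error only.

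limma 3.58.1 in R 4.3.3 was run on log2(FPKM + 1) with 4 group means, 4 residual degrees of freedom and a mean trend, for the 9805 genes that reached 1 FPKM in 2 or more libraries, with two-sided tests and Benjamini-Hochberg adjustment. Calls are genes with adjusted p under 0.05. There were 7 comparisons: ES against DMSO in each genotype and averaged over both, FDX1-OE against control in each treatment and averaged over both, and the interaction, the ES log2 change in FDX1-OE cells less the one in control cells. Comparisons that share libraries are not independent. A fold on FPKM + 1 understates changes of low genes. Alternatives were a pseudocount of 0.1, no filter, a mean of at least 5 FPKM, RLE (median-of-ratios) scaling, voom on recovered reads, a replicate block and each library left out. The script was tested on simulated data.

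The members and lists were chosen with earlier results of these data known. Named genes are the 10 members, up to 4 called genes with the largest changes in each list and comparison, and the 5 genes nearest to FDX1. FDX2, FDXR, GLDC, SIRT4, PDK4, OGDHL, CYP11A1 and CYP27A1 were named besides, after their values were seen. The libraries of a group differed by more than counting noise (chi-square per gene of 6.38 to 9.25). No label says that they were separate cultures, so p-values reflect only the variation among the libraries at hand, which may be technical. With 2 against 2 the smallest exact permutation p is 0.33, so none was run. CYP11B1, CYP11B2, CYP24A1 and CD2 are not analysed here. A further gene was left out of the lists and is not reported here. List genes outside the naming rule enter the counts only.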

Additional observations from a re-analysis of the deposited data

Results flagged for a closer look

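In 2 genes the ES responses of the genotypes differed by the interaction term of limma. These were 1 of the 10 members, FDX1, and 1 of the 8 tested regulators, BCKDK, with none in the other lists. Of all 9805 tested genes 4.30% were called in this comparison, and an excess over that share was not tested. For FDX1 the difference was 0.38 on the log2 scale (adjusted p = 0.0469), with a change of 0.23 in FDX1-OE cells and -0.15 in control cells. This call held in 3 of the 6 other settings. It was lost in most of the 8 fits without a library, where the difference ranged from 0.29 to 0.48. BCKDK differed by -0.35 (adjusted p = 0.0347), with a change of -0.04 in FDX1-OE cells and 0.31 in control cells, and was called in 5 of the 6 other settings and in none of the 8 fits without a library.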

How the results depend on the processing

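The rises of LIPT2 and the falls of DLAT and GCSH in FDX1-OE cells held in every setting that tested them. Genes called in FDX1-OE against control cells in DMSO numbered 50, 2 with no filter and 82 with voom, and 15 to 68 without 1 library. For the interaction they numbered 422, 222 with a pseudocount of 0.1, 176 with no filter and 639 with voom, and 79 to 630 without 1 library. In ES the 2094 genes of FDX1-OE against control cells became 748 (without control ES replicate 2) to 1944, and the 979 of the average became 452 (without FDX1-OE ES replicate 1) to 1006. Members called with ES in control cells numbered 4, 2 with no filter and 2 to 4 without 1 library. Members called for the interaction numbered 1, 0 with a pseudocount of 0.1, 0 with no filter, 2 with voom and 0 to 1 without 1 library. With a mean of at least 5 FPKM, which leaves 6 of the 10 members tested, 3 were called for ES on average, where the main count was 5 and leaving out 1 library gave 3 to 5. Members of FDX1-OE against control cells numbered 1 to 3 in ES without 1 library and, on average, 2 with RLE scaling and 2 with voom. FDX1 was called lower with ES in control cells under RLE scaling (-0.24, adjusted p = 0.0162) and when control DMSO replicate 2 was left out (-0.25, adjusted p = 0.0194).

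Signs turned for changes that the main setting did not call, of a size up to 0.15 (LIPT1 with ES in FDX1-OE cells). RLE scaling gave -0.02 for DLST with ES in FDX1-OE cells, -0.08 for FDX1 and -0.06 for DLD with ES on average, -0.03 for the LIPT2 interaction and -0.01 for DLST in FDX1-OE against control cells on average, and a pseudocount of 0.1 gave -0.00 for the LIPT2 interaction. Leaving out 1 library gave these ranges: with ES in FDX1-OE cells, -0.13 to 0.10 for LIAS and -0.05 to 0.35 for LIPT1; with ES in control cells, -0.13 to 0.08 for PDHX; with ES on average, -0.01 to 0.09 for FDX1 and -0.14 to 0.06 for LIPT1. FDX1-OE against control cells in ES ranged from -0.11 to 0.03 for LIAS and from -0.09 to 0.05 for DLST. In DMSO it ranged from -0.04 to 0.08 for DLAT, -0.01 to 0.10 for DLST, -0.04 to 0.11 for GCSH, -0.03 to 0.11 for DLD and -0.13 to 0.07 for PDHX, and on average from -0.02 to 0.18 for LIPT1 and -0.02 to 0.05 for DLST. The interaction ranged from -0.03 to 0.21 for LIAS, -0.12 to 0.15 for LIPT2, -0.13 to 0.00 for DLST, -0.08 to 0.08 for DBT and -0.18 to 0.03 for PDHX. The cause was not tested. Same-numbered libraries deviated with correlations of -0.18 to 0.18, so the numbers were not taken to pair them. With a replicate block the members called stayed at 4 with ES in FDX1-OE cells, 4 in control cells and 5 on average, and 526 genes were called for the interaction. With 2 libraries a group, LIPT1 and LIPT2 rest on 83 to 475 reads, which limits what changes could be seen in them.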

Other observations

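SIRT4, a mitochondrial sirtuin known to remove lipoyl groups from DLAT, lay below 1 FPKM and was not tested. It had 22 and 23 reads in FDX1-OE cells in ES and 7 and 6 reads in FDX1-OE cells in DMSO, against 9 and 3 reads in control cells in ES and 11 and 9 reads in control cells in DMSO. The FDX1-OE libraries in ES were thus above all the other libraries, on few reads. PDK4, a kinase of pyruvate dehydrogenase, and OGDHL, a relative of the 2-oxoglutarate dehydrogenase subunit, had at most 1 read in any library. Of the P450 enzymes, CYP11A1, which cleaves the side chain of cholesterol, had at most 1 read and CYP27A1, a sterol hydroxylase, at most 13.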
